A study of Mus musculus with 6 samples.

Results

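The genes described here encode the proteins of the cytosolic ribosome. They were taken by symbol, as Rpl or Rps followed by a number with an optional a, l, x or y, together with Rpsa, Rplp0, Rplp1 and Rplp2, and S6 kinases and pseudogenes were left out. The rule took 80 of the 22556 genes in the table, of which 32 belong to the small (40S) subunit, 45 to the large (60S) subunit and 3 to its stalk. A mean of at least 1 RPKM (reads scaled by transcript length and library size) over the 6 libraries was reached by 77 of them, and these were tested. The 3 below it included Rpl39l, at a mean of 0.195 RPKM, and Rpl10l, at 0.0213 RPKM.

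The libraries came from hearts of wild-type mice during a subcutaneous infusion of angiotensin II (Ang II), a hormone that constricts vessels and raises blood pressure. Osmotic minipumps gave 1000 ng per kg per min for 7 days or 28 days, and the controls are labelled as infused for 0 days. Each of the 3 groups had 2 libraries. The sources used here do not give the age or sex of the mice, what the controls received, or whether each library came from a separate mouse, so p-values measure the spread between these libraries, which may be technical.

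Each ribosome holds 1 copy of nearly every one of these proteins, assembled on ribosomal RNA in the nucleolus. The small subunit decodes the mRNA, the large subunit joins the amino acids, and the stalk on the large subunit recruits elongation factors. Their mRNAs are among the most abundant of a cell and are mostly read from promoters without a TATA box. Many of them begin with a run of C and T letters, the terminal oligopyrimidine tract, through which mTORC1 signalling controls their translation. A growing cardiomyocyte makes more ribosomes. The mouse heart also expresses Rpl3l, a form of the peptidyl transferase centre protein Rpl3 that is found in heart and skeletal muscle.

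The first letters of the transcripts are shown for genes whose levels changed, and for Rps6, the ribosomal substrate of S6 kinase, and Rps9, a small subunit gene with a high RPKM. RefSeq (GRCm38.p6) gave an annotated start for 60 of the 80 genes, and each line holds the 15 bases before and the first 15 bases of the transcript, 5′ to 3′. Capitals mark an unbroken stretch of at least 5 C or T letters, counted from the first C within 5 bases of the annotated start. In Rpl14, Rpl35, Rplp2 and Rps9 further C or T letters lie directly before the capitals. Rpl3, whose level also changed, has no entry.
Rpl14 (chr9:120571502-120571531, plus strand): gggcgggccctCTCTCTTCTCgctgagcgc
Rpl35 (chr2:39005117-39005146, minus strand): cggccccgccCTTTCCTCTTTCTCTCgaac
Rplp2 (chr7:141447636-141447665, plus strand): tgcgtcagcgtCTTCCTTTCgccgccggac
Rps6 (chr4:86857353-86857382, minus strand): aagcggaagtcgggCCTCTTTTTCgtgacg
Rps9 (chr7:3704026-3704055, plus strand): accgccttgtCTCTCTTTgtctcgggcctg
Rpl10a (chr17:28328456-28328485, plus strand, 1 of its 2 listed starts): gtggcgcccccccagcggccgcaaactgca
Rpl37 (chr15:5116598-5116627, plus strand): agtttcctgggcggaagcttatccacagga
Rps13 (chr7:116334176-116334205, minus strand): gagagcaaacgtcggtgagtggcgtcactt
Rps15 (chr10:80292416-80292445, plus strand): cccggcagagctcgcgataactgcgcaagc
Rpl3l (chr17:24727811-24727840, plus strand, 1 of its 2 listed starts): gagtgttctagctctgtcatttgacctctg

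The run was present at a listed start of 27 of the 60 genes, or 45.0%, against 24.02% of the tested genes with an entry and 21.2% of all genes in the RefSeq table. Of the genes shown, Rpl14, Rpl35, Rplp2, Rps6 and Rps9 held it, and Rpl10a, Rpl37, Rps13, Rps15 and Rpl3l did not. The search depended on the annotated start, and Rpl35a held the run at only some of its listed starts. A gene without a hit may thus still have the tract at the start that is used. In the 300 bases around the start (250 before and 50 after), the Ets motif CCGGAAG was found on either strand in 41.7% of the 60 genes and in 20.4% of tested genes. The YY1 motif CCATNTT was found in 30.0% against 18.1%, TATAAA in 10.0% against 9.16%, and the Sp1 motif GGGCGG in 36 of the 60 genes against 70.1%. A base could belong to more than 1 motif, and a match describes letters only. Genes with and without a run found in this search had like median log2 changes, at 0.21 and 0.24 after 7 days and 0.24 and 0.22 after 28 days. For the same reason this does not compare mRNAs with and without the tract.

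Levels differed 534-fold among the 77 tested genes, from a mean of 1.05 RPKM for Rps12 to 563 RPKM for Rpl41, with a median of 37.5 RPKM. After Rpl41, the smallest ribosomal protein, the next was the small subunit gene Rps9 at 350.0 RPKM. The range sits beside the share of each coding sequence that other loci repeat. Ribosomal protein genes have many processed pseudogenes, and 77 of the 80 shared at least 1 stretch of 50 bases of their coding sequence with another annotated locus. The 17 genes at 100 RPKM or more shared a median of 45.5% of their 50-base windows with other loci, the 51 genes from 5 to 100 RPKM shared 95.7%, and the 12 genes under 5 RPKM shared 100%. Across the 80 genes Spearman's rho of mean level and shared percentage was -0.47, given as a description because all points come from the same libraries. Several genes went against this order. Among the highest, Rpl41 was wholly shared and Rpl29, at 144 RPKM, was 90.3% shared. Rpl22 was only 31.0% shared at 42.3 RPKM, and Rpl10l and Rpl39l had little or no shared sequence at a level near 0. How the authors treated reads that match several loci is not given in the sources used here, so levels of genes with shared sequence are uncertain.

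**Figure D1:**
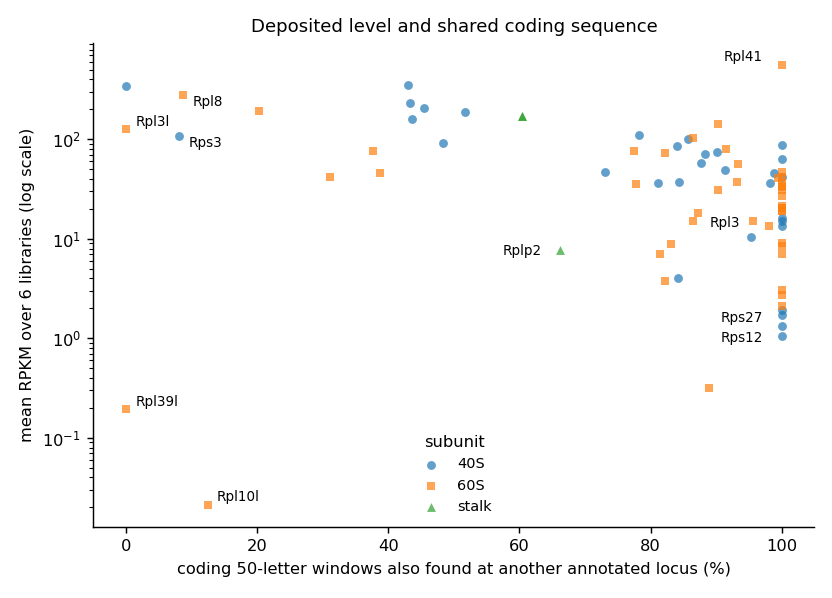
Mean RPKM over the 6 libraries (vertical, log scale) against the percentage of 50-base coding windows that also occur at another annotated locus (horizontal) for all 80 ribosomal protein genes, by subunit. Genes at 100 RPKM or more share a median of 45.5% of windows and genes under 5 RPKM a median of 100%. Rpl41 (wholly shared, 563 RPKM) and Rpl10l and Rpl39l (under 1 RPKM) are among the exceptions.

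For 4 genes the table also held a second row that names the same gene or a pseudogene of it. The stalk gene Rplp2 was listed at 5.55 and 3.54 RPKM in the controls, 6.11 and 8.37 RPKM at 7 days and 10.3 and 12.8 RPKM at 28 days. Its pseudogene row Rplp2-ps1 stood at 128 and 140, 169 and 155, and 164 and 214 RPKM, which was 15.9 to 39.6 times the level of the Rplp2 row. Rps23 was at 0 to 3.43 RPKM on its own and at 25.7 to 35.8 RPKM in a row shared with Gm15450, and Rps27 was at 0.805 to 1.85 RPKM and at 10.6 to 18.2 RPKM in a row shared with Gm9846. For Rplp2, Rps23 and Rps27 the second row held most of the level, whereas Rps19-ps3 stood at 0.139 to 0.213 times the Rps19 row.

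Replicates of a ribosomal protein gene differed by a median log2 gap of 0.10 (controls), 0.17 (7 days) and 0.14 (28 days), beside 0.11, 0.15 and 0.18 for all tested genes. A gap of over 1 log2 unit within a group was found for 5 genes, Rpl9, Rpl26, Rpl30, Rpl31 and Rps23. Rpl26 was listed at 7.31 and 20.5 RPKM in the controls, 19.8 and 15.7 RPKM at 7 days and 6.62 and 39.7 RPKM at 28 days. Rpl30 was listed at 4.28 and 13.7, 9.14 and 12.2, and 6.90 and 7.54 RPKM. In neither gene did the replicates allow a change to be seen. The coding sequence of each of these 5 genes was at least 83.1% shared with other loci. Such sharing was common in the family, since 65 of all 80 genes were at least 50% shared. Across the 77 tested genes Spearman's rho of the largest replicate gap and mean level was -0.59, given as a description only. The cause of the gaps was not tested.

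Estimated depth ran from 0.892 to 1.17 times that of control replicate 1, and 15636 to 16036 genes lay above 0 RPKM. All 14 cardiomyocyte markers, such as Myh6 and Tnnt2, were above 0 in every library, and their summed level was 58230 and 59160 RPKM in the controls, 54180 and 65760 RPKM at 7 days and 65200 and 68340 RPKM at 28 days. Some of the 8 listed atrial markers set the libraries apart. Myl7 was listed at 52.5 and 646 RPKM in the controls, 41.2 and 66.2 RPKM at 7 days and 341 and 182 RPKM at 28 days, and Myl4 and Sln likewise were low in control replicate 1 and both 7 day libraries and highest in control replicate 2. For Nppa only control replicate 1 was low, at 215 RPKM, and the other libraries lay between 1605 and 3040 RPKM. Of the 7 tested atrial markers, 3 had a log2 change above 0 at 7 days, over a range of -2.135 to 1.771. The markers thus did not all move together. The part of atrial tissue in the results on ribosomal protein genes was not tested.

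In each library the ribosomal protein genes were set against their own control mean. Their median log2 difference was 0.01 and -0.01 in the controls, 0.30 and 0.12 after 7 days, and 0.20 and 0.28 after 28 days. The median of all tested genes was -0.01 and 0.01, 0.15 and 0.13, and -0.01 and 0.04. The ribosomal protein genes thus stood 0.15 above all genes in 7 day replicate 1 and level with them in 7 day replicate 2, and 0.21 and 0.24 above them in the 28 day libraries. Of the 77 genes, 68 were lower in 7 day replicate 2 than in replicate 1, where 52.3% of all tested genes were. Together the 80 genes made up 1.50% and 1.48% of summed RPKM in the controls (short RNA genes left out), 1.57% and 1.56% after 7 days and 1.62% in both 28 day libraries.

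**Figure D2:**
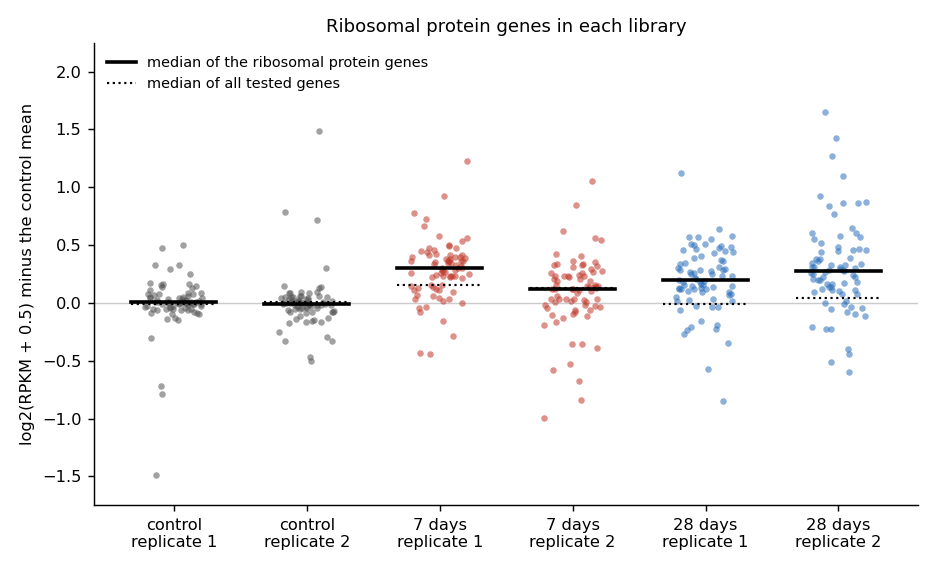
log2(RPKM + 0.5) of each of the 77 tested ribosomal protein genes minus its control mean (vertical, log2 units) in each of the 6 libraries, with the median of these genes (solid line) and of all tested genes (dotted line). The solid line lies above the dotted one in 7 day replicate 1 and in both 28 day libraries, and at the same height in 7 day replicate 2.

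The first comparison set 7 days of infusion against the controls. Of the 77 genes, 6 rose and 1 fell (limma, adjusted p under 0.05 by the Benjamini-Hochberg method across the 11096 tested genes), where 13.2% of all tested genes rose and 2.27% fell. Their share of increases, 7.79%, was thus below that of all genes. The 6 were Rpl14, Rpl10a, Rpl37, Rpl3, Rps13 and Rpl35, with increases of 1.26 to 1.59-fold, and the 1 that fell was Rpl3l. The median log2 change of the 77 genes was 0.23, which was 0.095 above the median of all genes (0.135). Of these genes 64 were above 0, as were 69.0% of all tested genes, and 49 lay above the median of all genes.

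Among large subunit genes, 5 of 42 rose (11.9% beside 13.2% of all tested genes), 1 fell (2.38% beside 2.27%) and 36 did not pass. Their median log2 change was 0.23. Rpl14 was listed at 24.6 and 26.4 RPKM in the controls, 44.2 and 37.9 RPKM at 7 days and 35.2 and 47.1 RPKM at 28 days. All 4 treated libraries lay above both controls, and the log2 change at 7 days was 0.67 (SE 0.155, limma adjusted p = 0.0303). Rpl10a, which forms the L1 stalk at the tRNA exit side, was listed at 34.4 and 31.0, 47.6 and 44.0, and 39.9 and 48.6 RPKM, a log2 change of 0.48 at 7 days (SE 0.13, limma adjusted p = 0.0434). Rpl35, which lies beside the exit of the peptide tunnel, was listed at 66.3 and 66.7, 83.8 and 83.8, and 89.9 and 91.5 RPKM. Its replicates lay close together in every group, and it rose by 0.33 at 7 days (SE 0.09, limma adjusted p = 0.0459). Rpl37 rose from 2.90 and 2.88 RPKM to 4.02 and 4.43 RPKM (log2 change 0.48, limma adjusted p = 0.0366).

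The pair Rpl3 and Rpl3l moved in opposite directions. Rpl3 was listed at 12.4 and 11.7 RPKM in the controls, 16.8 and 15.6 RPKM at 7 days and 16.6 and 17.5 RPKM at 28 days. It rose by 0.42 on the log2 scale at 7 days (SE 0.10, limma adjusted p = 0.0366). Rpl3l was listed at 154 and 151 RPKM in the controls, 113 and 95.4 RPKM at 7 days and 134 and 112 RPKM at 28 days. It fell by 0.56 at 7 days (SE 0.13, limma adjusted p = 0.0285), to 0.679 of the control level. Every treated library lay below both controls for Rpl3l and above both for Rpl3. The ratio of Rpl3 to Rpl3l in RPKM was 0.0801 and 0.0772 in the controls, 0.150 and 0.164 after 7 days and 0.124 and 0.156 after 28 days, so Rpl3l stayed the higher of the pair throughout. No 50-base stretch of the Rpl3l coding sequence was found at another locus, whereas 95.7% of that of Rpl3 was, at 26 loci, so the level of Rpl3 and hence the ratio are uncertain. The call for Rpl3l was kept under 12 of 16 other settings, both rescalings included, and was lost without a filter on low values, without either control library and without 7 day replicate 2 (limma adjusted p = 0.0597 to 0.177).

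**Figure D3:**
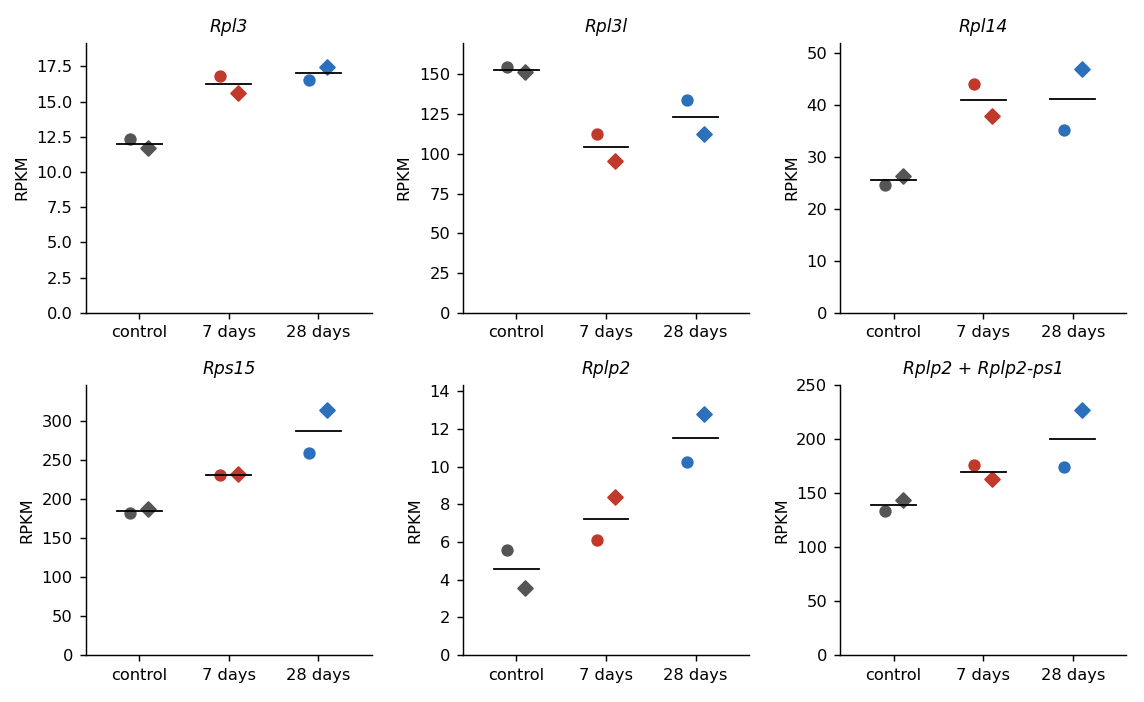
RPKM of 5 ribosomal protein genes and of the sum of the Rplp2 and Rplp2-ps1 rows in each library (circles replicate 1, diamonds replicate 2, lines the group mean), by days of infusion, each axis starting at 0. Rpl3 is above both controls in all 4 treated libraries and Rpl3l is below both, and the Rplp2 row is far below the sum.

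Small subunit genes had a median log2 change of 0.11 at 7 days, close to that of all genes. Of these 1 of 32 rose (3.12% beside 13.2% of all tested genes) while 31 did not pass. The 1 that rose, Rps13, was listed at 34.1 and 34.7, 45.4 and 43.0, and 45.7 and 47.7 RPKM (log2 change 0.36, SE 0.09, limma adjusted p = 0.0435). Rps6, the best known target of S6 kinase, was listed at 77.5 and 83.2, 99.3 and 97.6, and 81.1 and 90.2 RPKM. Both 7 day libraries lay above both controls for Rps6, and the gene did not pass (log2 change 0.29, limma adjusted p = 0.0943). Rps29, near the lower end of the measured levels, was listed at 2.85 and 1.64 RPKM in the controls and 1.48 and 0.999 RPKM at 7 days (log2 change -0.63, limma adjusted p = 0.177). Rps23 had the highest value of all, 1.14, with an SE of 0.91, and its rows summed gave 0.21 (limma adjusted p = 0.278). None of the 3 stalk genes passed, with log2 changes of 0.24 for Rplp0, 0.33 for Rplp1 and 0.63 for Rplp2.

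At 7 days the libraries of both groups did not overlap in the upward direction for 43 of 77 genes and in the downward direction for 2, where this held for 48.6% and 16.1% of all tested genes. At an unadjusted p under 0.05, 23 genes were higher and 1 was lower, against 26.5% and 5.66% of all genes. The 6 increases depended on the scaling, since with median ratio scaling or quantile normalization none of them passed and the median of the 77 genes was 0.07, beside -0.01 and -0.04 for all genes. Each of the 6 also failed to pass when any 1 of the 4 control or 7 day libraries was left out, with a limma adjusted p of up to 0.278 for Rpl35.

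Markers of other cells moved at 7 days as well, where 13.2% of all tested genes rose. All 10 fibroblast markers were above 0 in every library and 7 of 10 rose, and their summed level went from 564 to 579 RPKM in the controls to 1283 to 1365 RPKM. Of 19 monocyte and macrophage markers, also never at 0, 16 rose, from a sum of 452 to 454 RPKM to 761 to 854 RPKM. Of 12 tested cell cycle genes 10 rose, from a sum of 21.9 to 22.2 RPKM to 52.7 to 66.6 RPKM. Of 10 endothelial markers, none at 0, 4 rose, from a sum of 234 to 248 RPKM to 330.2 to 369 RPKM. Their part in the change of ribosomal protein genes was not tested. In such whole-tissue RNA, a smaller number of cells of a type and less RNA per cell cannot be told apart, which bears on Rpl3l, a gene of muscle cells. The summed cardiomyocyte markers lay above both controls in 7 day replicate 1 and below both in 7 day replicate 2. Singly, the 14 markers had log2 changes of -0.39 to 0.49 at 7 days, with 8 above 0, and 0 passed. The part of cardiomyocyte content in the fall of Rpl3l was not tested.

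The second comparison set 28 days of infusion against the same control libraries. Of the 77 genes 5 rose and 0 fell, where 2.87% of all tested genes rose and 1.54% fell. The 5 were Rplp2, Rps15, Rpl3, Rpl35 and Rps13, with increases of 1.35 to 2.42-fold, and made up 6.49% of the 77. The median log2 change was 0.24 beside 0.01 for all genes, and 66 of the 77 genes lay above that median of all genes. The downward count of 0 was also 0 under all 17 other settings, 6 of which left out 1 library each, and at an unadjusted p under 0.05 it was 1, while 30 were higher (9.32% and 12.8% of all genes).

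The stalk genes had the highest median, 0.51, at 28 days, and 1 of 3 rose (33.3% beside 2.87% of all tested genes). Rplp1 was listed at 146 and 131, 184 and 164, and 206 and 188 RPKM, and all treated libraries lay above both controls (log2 change 0.51 at 28 days, SE 0.11, limma adjusted p = 0.053). Rplp0, which anchors the stalk to the large subunit, was listed at 153 and 150, 195 and 165, and 195 and 167 RPKM (log2 change 0.25, limma adjusted p = 0.293). Rplp2 rose by 1.28 on the log2 scale in its own row (SE 0.23, limma adjusted p = 0.0318). With the Rplp2-ps1 row added the levels were 133 and 144, 176 and 163, and 174 and 227 RPKM, and the sum did not pass (log2 change 0.52, limma adjusted p = 0.0864). The value of the sum lay close to that of Rplp1.

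Among small subunit genes 2 of 32 rose at 28 days (6.25% beside 2.87% of all tested genes) and 30 did not pass, with a median of 0.145. Rps15, whose tail reaches toward the decoding site, was listed at 182 and 188 RPKM in the controls, 231 and 232 RPKM at 7 days and 260 and 315 RPKM at 28 days. No 2 groups overlapped for Rps15, and its log2 change at 28 days was 0.63 (SE 0.12, limma adjusted p = 0.0325). Rps13 rose by 0.43 (SE 0.09, limma adjusted p = 0.0491). Rps28 and Rps16 did not pass, at 0.59 and 0.45 (limma adjusted p = 0.066 and 0.0529). Rps12, the lowest tested gene, was listed at 0.450 and 0.941 RPKM in the controls and at 1.17 and 1.72 RPKM at 28 days (log2 change 0.72, limma adjusted p = 0.188).

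Among large subunit genes 2 of 42 rose at 28 days (4.76% beside 2.87% of all tested genes), 40 did not pass and the median was 0.25. Rpl35 rose by 0.445 (SE 0.09, limma adjusted p = 0.0402) and Rpl3 by 0.48 (SE 0.10, limma adjusted p = 0.0478). Rpl3l was 0.32 lower than in the controls and did not pass (limma adjusted p = 0.202). Rpl14 had a log2 change of 0.67, like that at 7 days, and did not pass here (limma adjusted p = 0.0607). Rpl31, Rpl37a and Rpl38 had the highest values of the large subunit outside the stalk, 0.76, 0.75 and 0.70, and did not pass, with a limma adjusted p of 0.197, 0.0944 and 0.0939. For Rpl31 this rested on 1 library, with 16.8 and 13.3 RPKM in the controls and 18.0 and 36.9 RPKM at 28 days.

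**Figure D4:**
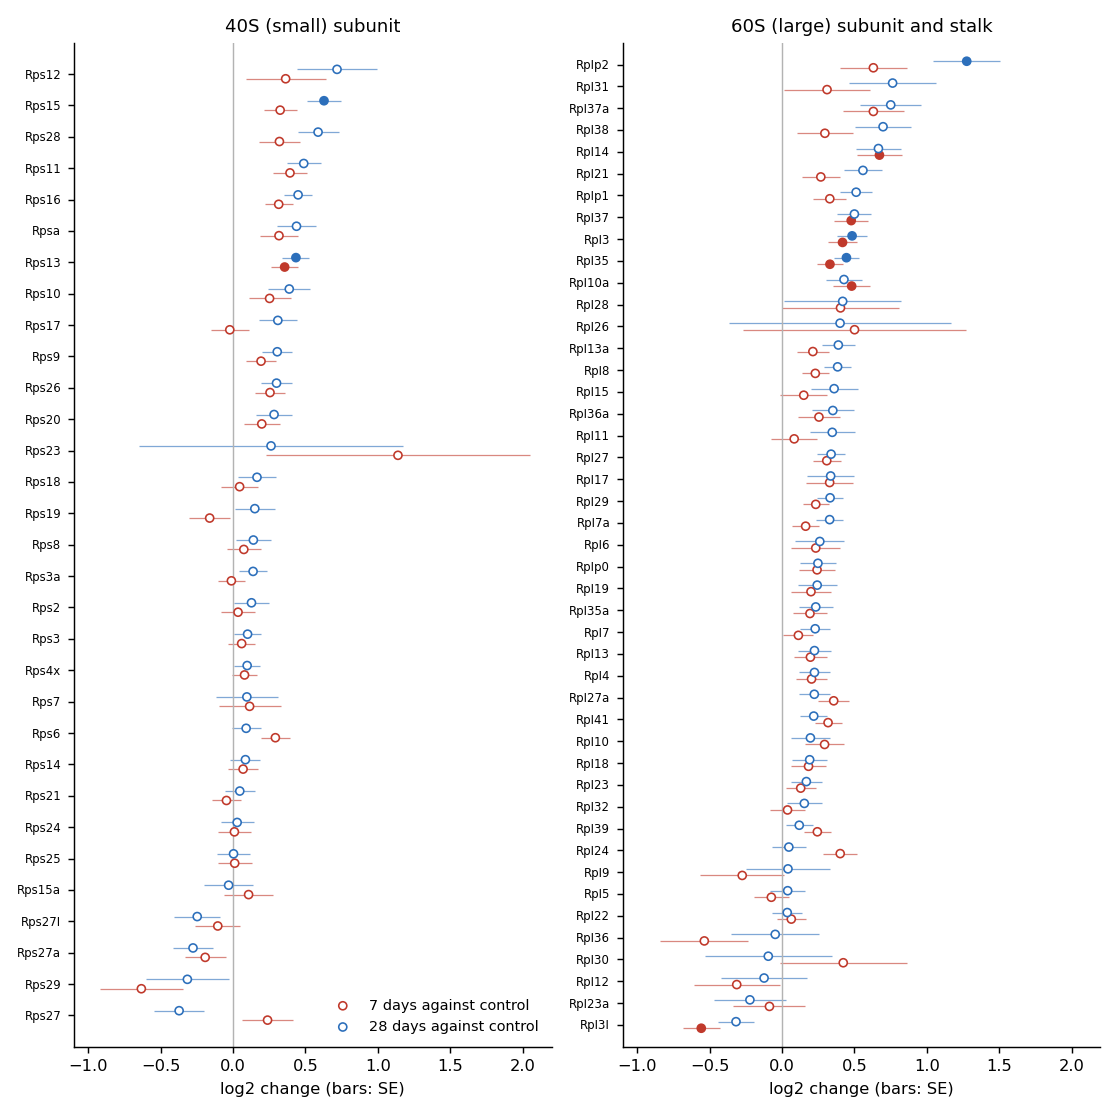
log2 change against control (horizontal, with its standard error) of 76 of the 77 tested ribosomal protein genes at 7 days (red) and 28 days (blue), ordered by the 28 day value within the small subunit (left) and the large subunit with its stalk (right). Filled points passed at a limma adjusted p under 0.05. Most points lie to the right of 0, and Rpl3l is the 1 filled point to the left of it.

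The libraries of both groups did not overlap upward for 49 and downward for 5 of the 77 genes at 28 days, against 28.8% and 25.8% of all tested genes. The 5 were Rpl3l, Rpl23a, Rps27, Rps27a and Rps27l. Rps27 counts as lower only in its own row, since its rows summed reached at most 15.8 RPKM in the controls and stood at 19.2 and 17.9 RPKM at 28 days, higher without overlap (limma adjusted p = 0.162). Rps27a, which is made as a fusion with ubiquitin, was listed at 15.9 and 18.1 RPKM in the controls and 13.2 and 14.6 RPKM at 28 days (log2 change -0.28, limma adjusted p = 0.298). The calls were not stable to the loss of 1 library, since Rpl3, Rpl35 and Rps13 did not pass without any 1 of the 6, and Rplp2 and Rps15 did not without any 1 except 28 day replicate 1, with a limma adjusted p of up to 0.341 for Rps13. With quantile normalization Rplp2 was the 1 gene that passed, and the median of the 77 genes was 0.14.

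At 28 days the summed cardiomyocyte markers, all 14 above 0, stood above the controls in both libraries, with 2 of 14 called higher. Of all tested genes 2.87% were called higher and 1.54% lower. Fibroblast markers summed to 599 to 664 RPKM with 1 of 10 higher, macrophage markers to 309 to 407 RPKM with 2 of 19 lower, and cell cycle genes to 18.6 to 18.8 RPKM. The fibroblast sum thus stood above both controls, and the macrophage and cell cycle sums below them. Endothelial markers summed to 238 to 298 RPKM with 1 of 10 higher. The part of these cells in the change of ribosomal protein genes was not tested.

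The third comparison set 28 against 7 days directly. By limma 0 of the 77 genes rose and 0 fell, where 0.406% of all tested genes rose and 4.26% fell. At an unadjusted p under 0.05, 3 were higher and 2 lower, against 3.0% and 19.1% of all genes. The median log2 difference was 0.07 for the 77 genes and -0.12 for all genes, and 67 of the 77 lay above the latter. The libraries did not overlap upward for 17 and downward for 7 of them, against 9.12% and 41.2% of all genes. Most of the tested genes were lower at 28 than at 7 days, which was not so for the ribosomal protein genes. With median ratio scaling the medians were 0.21 and 0.005, so the direction for all genes depended on the scaling.

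Single genes differed in this comparison without passing. Rps27 was listed at 1.36 RPKM in both controls, 1.85 and 1.55 RPKM at 7 days and 1.081 and 0.805 RPKM at 28 days, above the controls at the first time and below them at the second (28 against 7 days -0.61, SE 0.17, limma adjusted p = 0.105). Summed with the row shared with Gm9846 it was 0.41 higher at 28 than at 7 days (limma adjusted p = 0.168), the opposite direction. Rpl24 was listed at 8.52 and 7.55, 10.7 and 10.8, and 8.90 and 7.75 RPKM, with both 7 day libraries above all others (-0.36, SE 0.12, limma adjusted p = 0.144). Rplp2 had the highest difference, 0.65 (SE 0.23, limma adjusted p = 0.165), and 0.23 with the pseudogene row added.

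Other paralogs and proteins with a known second role were followed in the same way. Rpl22l1, the close relative of Rpl22, fell at 7 days, from 8.19 and 10.4 RPKM to 5.46 and 5.69 RPKM (log2 change -0.68, SE 0.14, limma adjusted p = 0.0199), and stood at 7.72 and 7.03 RPKM at 28 days (-0.31, limma adjusted p = 0.244). Rpl22 itself was listed between 40.01 and 45.8 RPKM in all libraries, and its log2 change at 7 days was 0.06 (SE 0.10). Rpl7 and Rpl7l1 had log2 changes of 0.11 and 0.20 at 7 days, and neither passed. Rpl36al was at 125 to 162 RPKM and Rpl36a at 2.54 to 3.88 RPKM, with 100% of the Rpl36a coding windows shared. Rps27l stood at 77.3 to 109 RPKM in all libraries. The 5S particle proteins Rpl5 and Rpl11, which also bind Mdm2, were at 27.4 to 34.4 and 15.7 to 23.97 RPKM, and did not pass in any comparison. Rpsa, the laminin receptor precursor, was listed at 38.9 and 36.6, 51.4 and 43.2, and 56.3 and 46.8 RPKM, above the controls in all treated libraries without passing (0.44 at 28 days, limma adjusted p = 0.118). Rps19, whose loss causes Diamond-Blackfan anaemia, had log2 changes of -0.16 and 0.15 that did not pass.

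A few ribosomal proteins fall outside the symbol rule. Fau, which encodes Rps30 fused to a ubiquitin-like protein, rose from 35.0 and 27.0 RPKM to 50.9 and 41.4 RPKM at 7 days (log2 change 0.57, SE 0.15, limma adjusted p = 0.0485) and stood at 44.8 and 46.5 RPKM at 28 days. Its coding windows were 100% shared with another locus, and the call was not followed under other scalings. Gnb2l1, which encodes the scaffold Rack1 on the small subunit, had 0.17 and 0.15 and did not pass.

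Other genes of protein synthesis were taken from lists. Of all tested genes 13.2% rose at 7 days, 2.87% rose at 28 days and 4.26% were lower at 28 than at 7 days. Of 76 mitochondrial ribosomal protein genes 2 rose at 7 days (2.63%) and 1 at 28 days (1.32%), with median log2 changes of 0.06 and 0.10. Of 53 initiation and elongation factors, 10 rose at 7 days (18.9%) and 1 at 28 days (1.89%), with medians of 0.23 and 0.10, and 1 was lower at 28 than at 7 days. The factors thus had the same median as the ribosomal protein genes at 7 days and a lower one at 28 days, a difference that was not tested. Eef1g, a subunit of elongation factor 1, passed at both times, with 29.2 and 27.2, 39.0 and 37.4, and 39.9 and 42.4 RPKM (0.43 and 0.54, limma adjusted p = 0.0283 and 0.0318). Pabpc1, the poly(A) binding protein, rose by 0.61 at 7 days (limma adjusted p = 0.00871) and was 0.24 above the controls at 28 days without passing. Of 23 translation factors and similar genes whose mRNAs carry the terminal oligopyrimidine tract, 6 rose at 7 days (26.1%) and 1 at 28 days (4.35%), with medians of 0.22 and 0.12. The lists overlap, and all of these that rose, apart from Fau, are also among the initiation and elongation factors. Of 93 ribosome assembly factors 11 rose at 7 days, or 11.8% beside 13.2% of all tested genes, and 4 rose at 28 days, or 4.30% beside 2.87%, and 1 was lower at 28 than at 7 days. Bysl and Rrp12, which act in maturation of the small subunit, passed at both times, at 0.67 and 0.81 for Bysl and 0.90 and 0.88 for Rrp12 on the log2 scale.

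Of 22 tested genes of the mTORC1 and S6 kinase pathway, 2 rose at 7 days (9.09% beside 13.2% of all tested genes). At 7 days 1 fell (4.55% beside 2.27%), and at 28 days 1 rose (4.55% beside 2.87%). The list's median at 7 days was 0.135, the same as that of all genes. Akt1, an upstream kinase, was listed at 49.1 and 49.5, 67.1 and 67.3, and 78.3 and 73.9 RPKM (0.44 and 0.62, limma adjusted p = 0.0208 and 0.0184). Rps6ka1, an Rps6 kinase of the Erk pathway, rose by 0.84 at 7 days (limma adjusted p = 0.011). Sesn1, an inhibitor of mTORC1, fell by 0.93 at 7 days, from 75.8 and 79.4 RPKM to 38.8 and 42.1 RPKM (limma adjusted p = 0.0085). Ddit4, another inhibitor, was listed at 26.6 and 16.05, 23.95 and 87.2, and 59.5 and 82.8 RPKM. Its log2 changes, 1.13 and 1.74, were upward and did not pass (limma adjusted p = 0.201 and 0.125). Rps6kb1, the S6 kinase, stood at 5.58 to 6.47 RPKM in all libraries, and its log2 change at 7 days was -0.06 (SE 0.12).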

How the data were processed

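Gene expression was measured by RNA sequencing of 6 heart libraries, with 1 value per gene and library. The authors deposited RPKM values, per the file headers. Per the submitters' processing notes, HTSeq, DESeq2, Bowtie 0.12.9 and TopHat2 2.0.12 were used with the builds mm8 and mm9, in roles that the notes leave out. The annotation, the read length and the treatment of reads with several matches were not given in the sources used here. Without counts, absolute depth is unknown.

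RPKM were used as deposited, as log2(RPKM + 0.5), which understates changes of low genes, for genes with a mean of at least 1 RPKM. All 6 libraries were fitted in limma 3.58.1 (R 4.3.3) with group means and a mean-variance trend. P-values are two-sided and adjusted by Benjamini-Hochberg over all 11096 tested genes. The median over a list is a description without a test. The fit was tested on simulated data. Shared coding sequence was counted as 50-base windows of the principal GENCODE coding sequence (GRCm38) found at another annotated locus on either strand. Promoter motifs came from RefSeq (GRCm38.p6). No file with protein sequences was used here.

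The genes, lists and tests were chosen with earlier results of these data known. Named genes were those that passed, the 5 highest and 5 lowest per comparison, paralog pairs, 9 genes with a known second role or in the stalk, the 3 highest and 3 lowest levels, and up to 4 passing genes per other list. The rule took some genes of marker lists that the text gives only as sums, and some named genes are not reported here. Rps16, Rps28, Gnb2l1, Rps6kb1, Rpl23a, Trp53 and Ddit4 were named after their values were seen. Alternatives were other pseudocounts, filters, scalings, variance models and thresholds, a replicate block, each library left out, and, chosen after seeing the data, rows of the same gene summed. Analyses used Python 3.11.15, pandas 2.3.3, numpy 2.4.6 and scipy 1.17.1.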

Additional observations from a re-analysis of the deposited data

Results flagged for a closer look

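A pair of genes of protein synthesis outside the ribosome passed the test of the difference between 28 and 7 days. Their changes against the shared controls thus differed between the times. They were 1 of 53 initiation and elongation factors (1.89%) and 1 of 93 assembly factors. Both shares lay below the 4.26% of all tested genes that were lower at 28 than at 7 days. Among 23 translation factors and similar genes with the tract, Eef1a1 was the 1 that was lower (4.35%). Median ratio scaling left 225 of all tested genes lower, against 473 as deposited, and neither gene was followed under it. Eef1a1, the elongation factor that brings tRNA to the ribosome, was listed at 204 and 206 RPKM in the controls, 304 and 321 RPKM at 7 days and 216 and 230.3 RPKM at 28 days, and the difference of 28 against 7 days was -0.49 on the log2 scale (SE 0.09, limma adjusted p = 0.0361). Rrp15, an assembly factor of the large subunit, was listed at 4.004 and 4.73, 8.37 and 7.28, and 4.94 and 4.49 RPKM, a difference of -0.67 (SE 0.13, limma adjusted p = 0.0384). Both had returned toward the control level at 28 days. No ribosomal protein gene passed this test by limma, and at an unadjusted p under 0.05 3 were higher and 2 lower.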

How the results depend on the processing

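The number of ribosomal protein genes that rose at 7 days, 6, was 0 with median ratio scaling and 0 with quantile normalization, 3 without a filter on low values, 2 without a mean-variance trend, 3 at an unadjusted p under 0.05 with a fold over 1.5, and 0 to 9 with 1 library left out. The number that fell, 1, was 0 without a filter and 0 at the unadjusted p with the fold, and 0 to 2 with 1 library left out. Their median at 7 days was 0.07 under both rescalings (0.073 in each), and 0.125 to 0.301 with 1 library left out. At 28 days the 5 that rose were 0 without a filter, 1 with quantile normalization, 1 without a trend, 0 with only the groups compared, 8 at the unadjusted p with the fold and 0 to 4 with 1 library left out, and the median was 0.14 with quantile normalization. Between 28 and 7 days the counts of 0 were 1 higher and 1 lower at the unadjusted p with the fold and 0 to 1 higher with 1 library left out, and the median of 0.07 was 0.21 with median ratio scaling and 0.002 to 0.139 with 1 library left out. Small differences between 28 and 7 days changed sign, for Rpl10a from -0.05 to 0.087 and 0.01 under median ratio scaling and quantile normalization (-0.193 to 0.087 with 1 library left out), for Rpl14 from -0.01 to 0.133 and 0.064 (-0.214 to 0.20), and for Rpl37 from 0.02 to values of -0.04 to 0.084 with 1 library left out. The cause was not tested, except that leaving out a library gives fewer samples. The lone sample of its group was then assumed to vary like the other groups.

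The share of increases among all genes that passed was 85.3% as deposited and 63.1% and 57.1% with median ratio scaling and quantile normalization at 7 days, and 8.69%, 21.9% and 20.8% for 28 against 7 days. The replicate numbers were not taken as pairs, since the correlations of same-numbered libraries were 0.15, -0.02 and -0.01. With a replicate block 1 gene rose and 2 fell at 7 days and 1 rose at 28 days. The precision of low genes is limited, since their depth is unknown.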

Other observations

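Targets of p53, p53 itself and its inhibitors Mdm2 and Mdm4 were followed because Rpl5 and Rpl11 bind Mdm2. Of 12 tested genes, 3 rose and 2 fell at 7 days, where 13.2% of all tested genes rose and 2.27% fell. At 28 days 1 of the 12 rose, where 2.87% of all tested genes did. Cdkn1a, an inhibitor of the cell cycle, was listed at 5.29 and 7.30 RPKM in the controls, 25.1 and 53.5 RPKM at 7 days and 49.5 and 33.4 RPKM at 28 days (log2 changes 2.47 and 2.61, limma adjusted p = 0.00593 and 0.0144). Phlda3 rose by 0.89 at 7 days (limma adjusted p = 0.0186), and Trp53, which encodes p53 itself, by 0.71 (limma adjusted p = 0.0494). Mdm4, an inhibitor of p53, fell by 0.79 (limma adjusted p = 0.0155). Sesn1, also on this list as a p53 target, fell by 0.93 (limma adjusted p = 0.0085). Cdkn1a was thus higher than the controls in all 4 treated libraries.

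Of 20 tested genes of RNA polymerase I, which makes ribosomal RNA, and its regulators, 1 rose at 7 days and 1 fell at 28 days. These were 5.0% each, where 13.2% of all tested genes rose at 7 days and 1.54% fell at 28 days. The 1 that rose was the regulator Myc and no subunit. It was listed at 0.874 and 1.12, 3.23 and 2.62, and 2.49 and 1.77 RPKM (log2 change 1.19 at 7 days, limma adjusted p = 0.00929). Polr2k, a subunit shared by the RNA polymerases, was listed at 7.14 and 4.84 RPKM in the controls and 2.58 and 3.19 RPKM at 28 days (-0.92, limma adjusted p = 0.0424). Rps19bp1, a binding partner of Rps19, passed at both times, with log2 changes of 0.90 and 0.60 (limma adjusted p = 0.00346 and 0.0328). Rrbp1, a ribosome receptor of the endoplasmic reticulum, rose by 0.58 at 7 days (limma adjusted p = 0.0268).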
